A study of Mus musculus with 5 samples.

Results

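The mouse miR-297, miR-466, miR-467 and miR-669 families come from a large run of hairpins in an intron of Sfmbt2, a gene for a Polycomb group protein. They were measured here in the hippocampus on 5 two-colour microRNA (miRNA) arrays. Probes were taken by name: every mouse miRNA probe of the 4 families was included, whatever its copy letter or arm, except names ending in an asterisk, which marks the minor arm of a hairpin. This gave 23 of 569 miRNA probes, made up of 3 of the miR-297, 12 of the miR-466, 5 of the miR-467 and 3 of the miR-669 family. The 4 probes left out for their asterisk are miR-297a*, miR-467a*, miR-467b* and miR-467e*. The rule uses names alone, but it was set with earlier results of these data known.

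The mice were 8-week-old knock-ins of the 129/Sv strain that carry a human BDNF allele (hBDNF), in 1 genotype with methionine on both copies (Met/Met) and in the other with valine on both (Val/Val). Both genotypes therefore carry the human gene, and neither is a wild-type mouse. Hippocampal RNA of 5 mice of each genotype was labelled with Cy3 (Met/Met) or Cy5 (Val/Val), and each array joined 1 mouse of either genotype, with no exchange of dyes. The effects of dye and genotype therefore cannot be told apart. The tables call the columns Test and Cntrl without naming dye or genotype, so every ratio is log2 of Test over Cntrl, and its direction between genotypes is not settled.

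MiRNAs are short RNAs cut from hairpin precursors that lower the output of messenger RNAs, which they recognise mainly through the seed, bases 2 to 8 of the mature strand. The Sfmbt2 hairpins arose by repeated duplication in rodents. Their host gene is imprinted and expressed from the paternal copy in the early mouse embryo and placenta, where this cluster is best known. RefSeq (assembly GRCm38.p6) lists 81 hairpin genes of the 4 families. Of these, 71 lie inside Sfmbt2 on chromosome 2 and 10 elsewhere. Along the host gene, the order miR-467, miR-466, miR-669 recurs in 11 runs that hold 33 of the 71 hairpins. By name, 21 of the 23 probes matched a hairpin, and the 2 probes of miR-466a did not. Matches were to hairpins inside Sfmbt2 alone for 18 probes, and also to a hairpin elsewhere for the other 3 (miR-297a and both arms of miR-466f). Some probes stand for many identical or near-identical genes: miR-669a matched 12 hairpins, miR-467a 10 and miR-466b-5p 8, and the values of these probes cannot be traced to a single copy.

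The mature sequences that the probes were designed against, as the deposited tables give them, show how alike these miRNAs are. They are shown for the seed groups and the brightest probes on which the results turn, with the seed in capitals. The first 4, all 5p arms of miR-466, share the seed AUGUGUG, which holds a UG repeat.
miR-466a-5p: uAUGUGUGuguacauguacaua
miR-466b-5p: gAUGUGUGuguacauguacaug
miR-466c-5p: gAUGUGUGugugcauguacaua
miR-466e-5p: gAUGUGUGuguacauguacaua

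The miR-297 probes share another seed, and differ from each other at positions 16 and 17 counted from the 5′ end (G17A from miR-297a to miR-297c, and A16U from miR-297b-5p to miR-297c).
miR-297a: aUGUAUGUgugcaugugcaugu
miR-297b-5p: aUGUAUGUgugcaugaacaugu
miR-297c: aUGUAUGUgugcauguacaugu

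The 3p arms of miR-466 are rich in A and C instead. MiR-466f-3p and miR-466g, which have seeds of their own, belong to the brightest probes.
miR-466a-3p: uAUACAUAcacgcacacauaaga
miR-466b-3-3p: aAUACAUAcacgcacacauaaga
miR-466d-3p: uAUACAUAcacgcacacauag
miR-466f-3p: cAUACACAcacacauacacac
miR-466g: aUACAGACacaugcacacaca

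MiR-467a and miR-467e were the members with a positive ratio on every array, and miR-669c was the brightest.
miR-467a: uAAGUGCCugcauguauaugcg
miR-467e: aUAAGUGUgagcauguauaugu
miR-669c: aUAGUUGUguguggaugugugu

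Repeat sequence sets these probes apart from the rest of the array. The word UGUGUG occurred in 13 of the 23 sequences (56.5%), against 8 of 542 miRNAs outside the 4 families (1.48%) and 21 of all 569 (3.69%). The word GCAUGU occurred in 12 of the 23 and in 0 of the 542. By composition 18 members were rich in U and G, and 5 (miR-466a-3p, miR-466b-3-3p, miR-466d-3p, miR-466f-3p and miR-466g) were rich in A and C. The share of G and U ran from 9.52% in miR-466f-3p to 86.4% in miR-669c. Of the 253 pairs of members, 15 pairs lay within an edit distance of 2, which is at most 2 single-base changes, and these pairs involved 15 members. The count of such pairs between a member and a miRNA outside the families was 0. Within such pairs the probes may share signal, so members are not independent measurements.

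The 23 members carried 15 seeds, 4 of them shared by 12 members. MiR-467a has the seed of miR-290-3p and miR-292-3p, miRNAs of the pluripotency cluster of early embryos. The 6 bases AAGUGC stood within the first 9 bases of miR-467a, miR-467b, miR-467c and miR-467d, and of 17 other miRNAs on the array, which belong to the miR-17/20/93/106, miR-290 to miR-295, miR-302 and miR-105 groups. These words describe sequence only and say nothing of binding in the hippocampus.

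Signal was low for nearly all of the cluster. Each array carried 136 mismatch or shifted control spots, which report binding of imperfect matches, and the 95th percentile of these spots was taken as a limit for each column of each array. A miRNA was counted above this limit when either column passed it on 3 arrays or more. That was so for 3 of the 23 members (miR-669c, miR-466f-3p and miR-466g) and for 55.9% of all 569 miRNAs. A total of 16 members were not above it on any array in either column. Against the 95th percentile of the empty spots, a weaker limit, all 23 members passed the same rule, and these entered the test. The mean Test intensity per member ran from 45.4 to 475 (median 72.5) and the mean Cntrl intensity from 312 to 822 (median 349). Empty spots had medians of 31.4 to 45.7 in Test and 208 to 361 in Cntrl. A member not above the mismatch limit is not shown to be absent, since signal below the limit cannot be told from binding of imperfect matches.

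MiR-669c was the member furthest above the controls. Its Test intensities on replicates 1 to 5 were 561, 680, 296, 319 and 518, and its Cntrl intensities 846, 857, 852, 721 and 832. This is 2.77 to 6.66 times the mismatch limit in Test and 1.76 to 2.23 times in Cntrl. It was above the limit on 5 of 5 arrays in both columns.

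MiR-466f-3p, an A and C repeat, was the only other member above the limit on every array in both columns. Its Test intensities were 213, 314, 142, 121 and 118, between 1.28 and 1.51 times the limit. Its Cntrl intensities were 524, 621, 472, 515 and 519, at least 1.12 times the limit. MiR-466g, of similar composition, was above the limit on 1 array in Test and on 3 arrays in Cntrl. MiR-467a stayed below it on every array in Test, at 0.85 to 1.00 times the limit, and was above it on 2 arrays in Cntrl.

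MiR-466a-5p had the lowest mean signal of the cluster in Test, with intensities of 50.3, 51.4, 48.7, 43.4 and 33.3, where the empty spots of the same arrays had medians of 45.7, 40.3, 38.2, 36.4 and 31.4. It passed the limit set by the empty spots on 3 of 5 arrays in Test and on 3 of 5 in Cntrl. The same holds for miR-297b-5p, miR-466e-5p and miR-669b. On replicate 5, only 8 of the 23 members were above the empty spots' limit in Cntrl, against 19 in Test. Ratios of these 4 members thus rest on signal close to that of the empty spots. On replicate 5 this holds for others too, where the empty spots' limits were 35.6 in Test and 400 in Cntrl. There miR-297c read 36.0 in Test and 391 in Cntrl, and miR-466b-5p 35.8 and 390.

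**Figure D1:**
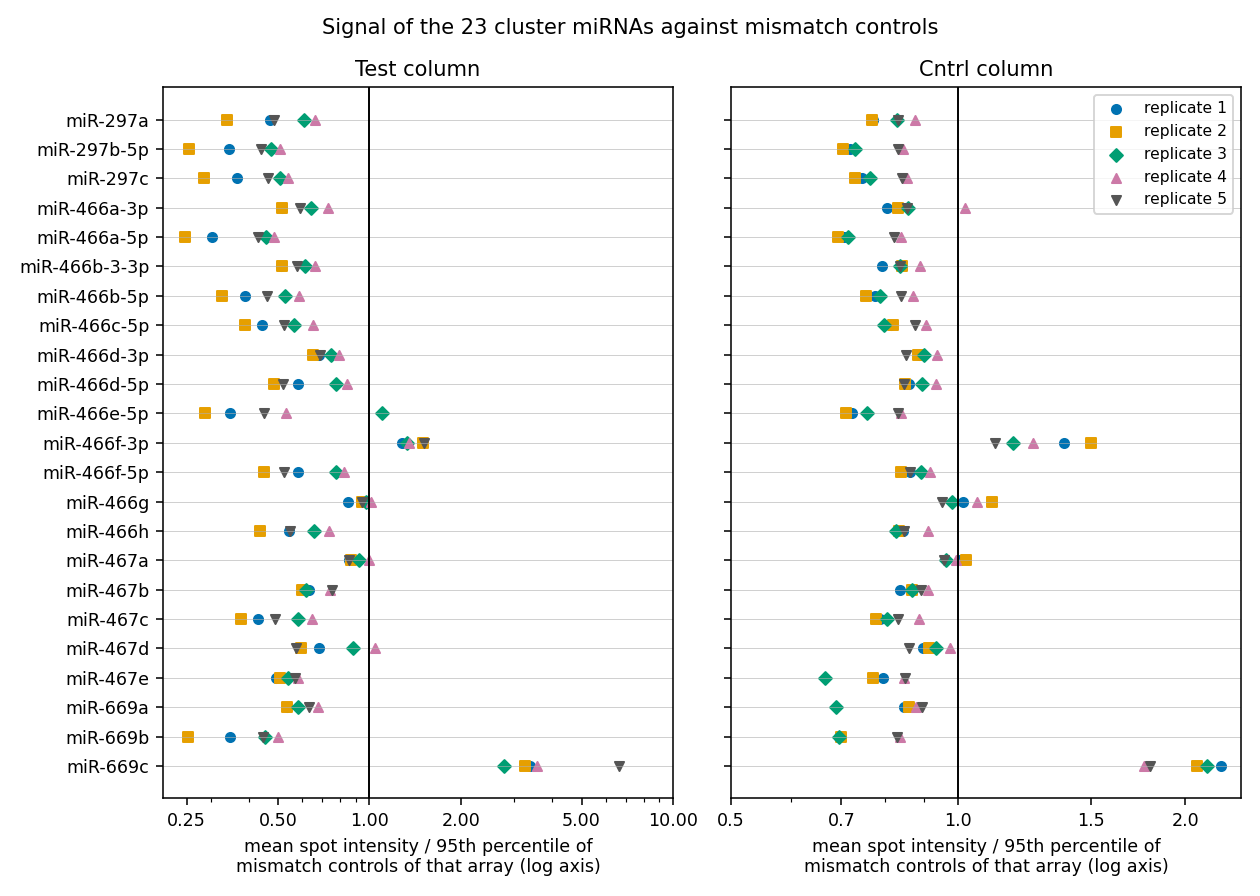
Signal of the 23 members against the mismatch controls. Each point is the mean spot intensity of 1 miRNA on 1 array divided by the 95th percentile of the mismatch controls in that column (log axis, 1 marks the limit), with Test on the left and Cntrl on the right. Points of miR-669c and miR-466f-3p lie right of the line on all 5 arrays in both panels, and 16 members lie left of it throughout.

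The tissue label was set against marker miRNAs on the same arrays. Of 7 probes for hippocampal markers (miR-124, miR-9, miR-132, miR-138 and their other arms; miR-128a has no probe of that name), 6 were above the mismatch limit, with mean Test intensities of up to 42598 for miR-9. MiR-204, abundant in the choroid plexus, and miR-451, of red blood cells, were bright as well, at 29328 and 5522. The liver marker miR-122 (125 in Test) was above the limit, as were 3 of 4 probes for striated-muscle markers (miR-1 at 535). Of 21 probes of the pluripotency miR-290 to miR-295 and miR-302 groups, 2 were above the limit, and of 7 probes from miR-379, miR-410, miR-495, miR-376a and miR-434, of another imprinted miRNA cluster, all 7 were.

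The comparison of the columns asks whether cluster miRNAs differ between the genotypes, as far as the unsettled columns allow. None of the 23 members passed an adjusted p of 0.05 in limma, and none of the 568 miRNAs tested did (0%). Adjusted p values of the members lay between 0.174 and 0.998. At an unadjusted p under 0.05 there were 6 members (26.1%), 1 higher and 5 lower in Test, against 110 of all 568 (19.4%). By direction the background was 8.63% higher and 10.7% lower. The mean log2 ratio was positive for 11 members and negative for 12, with a median of −0.0017 and a range of −0.13 to 0.17; over all tested miRNAs the median was 0.0029. An exact two-sided test that flips the signs of the 5 array ratios has 0.0625 as its smallest possible p, and 7 members reached it.

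Those 7 members had the same sign on 5 of 5 arrays (30.4%, against 19.7% of all tested), 2 of them positive and 5 negative. The background for each direction was 8.63% for positive and 11.1% for negative. The spread between arrays was small for the cluster, with a median SD of 0.072 against 0.12 for all tested miRNAs. The background correction adds an offset of 50, which by construction draws the ratios of dim probes towards 0. A wider spread stood in the values of the authors, whose steps are unstated: in the authors' deposited table the members' median SD was 0.45.

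Of the 4 members with the seed AUGUGUG, 3 had an unadjusted p under 0.05, all lower in Test, where 10.7% of all tested miRNAs did so in that direction. A share over 4 near copies is no measure of the group. MiR-466a-5p had log2 ratios of −0.17, −0.022, −0.12, −0.12 and −0.20 on replicates 1 to 5. Its mean was −0.13 ± 0.07 (SD, n = 5), with a limma p of 0.0114 and an adjusted p of 0.174. All 5 arrays lay below 0, and replicate 2 lay nearest to it.

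MiR-466c-5p, which differs from miR-466e-5p by G12A alone, stood at −0.17, −0.12, −0.066, −0.085 and −0.069. The mean was −0.10 ± 0.04 (n = 5, limma adjusted p = 0.174). MiR-466b-5p stood at −0.16, −0.024, −0.11, −0.048 and −0.14, with a mean of −0.098 ± 0.059 (n = 5, limma adjusted p = 0.215) and an unadjusted p of 0.0583 to 0.0849 when replicate 1, 3 or 5 was left out. For both, as for miR-466a-5p, every array was negative and replicate 1 was at or near the lowest value.

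MiR-466e-5p, the fourth of this seed group, differs from miR-466b-5p by a single base (G22A as read from miR-466b-5p) and had a mean of 0.010 ± 0.159 (n = 5, limma adjusted p = 0.963). Its ratios were −0.077, 0.044, 0.26, −0.022 and −0.16. On replicate 3, 1 of its 6 Test spots read 451 while the others read 48.4 to 56.7, and replicate 3 is also the array with its highest ratio. With the median of the spots in place of their mean, its mean ratio was −0.068 (limma adjusted p = 0.417). Of the 230 sets of 6 spots behind the members, this set and miR-466a-3p on replicate 4 in Cntrl (highest spot 654, next 387) were the only 2 in which a spot exceeded 1.5 times the median of its set.

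All members of the miR-297 family had negative means, with a median of −0.094. For miR-297a the mean was positive under 2 of 21 settings, among them array weights (0.014). The family median was −0.22 with median centring, −0.087 with loess on the probes above the mismatch limit and −0.50 in the authors' deposited table. MiR-297c stood at −0.11, −0.059, −0.095, −0.062 and −0.14. Its mean was −0.094 ± 0.036 (n = 5), with a limma p of 0.0134 and an adjusted p of 0.180. MiR-297b-5p stood at −0.068, −0.060, −0.098, −0.090 and −0.19, with a mean of −0.10 ± 0.05 (n = 5, limma adjusted p = 0.194). Both were negative on each array, and replicate 5 was the lowest for both.

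MiR-297a, which differs from miR-297c by G17A alone, did not share the sign on all arrays. Its ratios were 0.061, −0.051, −0.066, 0.051 and −0.072, with a mean of −0.015 ± 0.066 (n = 5, limma adjusted p = 0.831). Replicates 1 and 4 were positive and the other 3 negative. The arm left out for its asterisk, miR-297a*, has the seed AUACAUA of miR-466a-3p, miR-466b-3-3p and miR-466d-3p and had a mean of −0.016 ± 0.054.

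The other miR-466 members were centred near 0. MiR-466d-3p had the highest mean of the family, 0.11 ± 0.15 (n = 5, limma adjusted p = 0.355), with ratios of 0.084, 0.20, −0.042, −0.0024 and 0.32. Replicates 3 and 4 were on the other side of 0, and without replicate 5 the mean was 0.060. MiR-466f-3p, above the mismatch limit on every array by a small margin, stood at −0.26, −0.11, −0.025, −0.40 and 0.24, with a mean of −0.11 ± 0.24 (n = 5, limma adjusted p = 0.494). Here 4 arrays were negative and replicate 5 positive, so the arrays differed by more than the mean. Without replicate 5 the mean was −0.20 (unadjusted p = 0.0362, limma adjusted p = 0.220), and without replicate 4 it was −0.040. MiR-466g had ratios of −0.026, 0.043, 0.039, −0.20 and 0.29, and its mean of 0.029 ± 0.179 turned to −0.037 without replicate 5.

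Of the miR-467 family, 4 of 5 members had positive means. MiR-467e had the highest mean of the cluster, with ratios of 0.042, 0.37, 0.25, 0.047 and 0.12. The mean was 0.17 ± 0.14 (n = 5), with a limma p of 0.0303 and an adjusted p of 0.222. All arrays were positive, and replicates 2 and 3 were the highest. The unadjusted limma p was 0.069 without replicate 2 and 0.0835 without replicate 3. Its Cntrl signal on replicate 3, at 266, was the lowest of the 5 arrays (301, 319, 266, 347 and 394), and the same array was the lowest in Cntrl for miR-669a (275). The empty spots were also lowest in Cntrl on that array, with a median of 208 and a 95th percentile of 248.

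MiR-467a was positive on every array as well, at 0.013, 0.14, 0.028, 0.0063 and 0.15, with a mean of 0.068 ± 0.072 (n = 5, limma adjusted p = 0.342). Replicates 1, 3 and 4 lay close to 0. MiR-467b had a mean of 0.092 ± 0.166 (n = 5, limma adjusted p = 0.456) and was negative on replicate 3 alone, at −0.16. Without that array the mean was 0.15 (unadjusted p = 0.0248, limma adjusted p = 0.149), and without replicate 5 it was 0.048. Median centring of each array in place of loess turned miR-467a to −0.039 and miR-467b to −0.064, and turned the family median from 0.068 to −0.045.

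MiR-669c, the brightest member, varied most between arrays. Its log2 ratios were 0.022, 0.22, −0.31, −0.085 and 0.96, with a mean of 0.16 ± 0.48 (n = 5, limma adjusted p = 0.617). Replicate 5 stood far above the other 4 arrays, and without it the mean was −0.036. On the same array miR-204, the choroid plexus marker, had a ratio of 1.15 against −0.11 to 0.21 on the other 4, and the muscle miRNA miR-1 had 2.26 against −1.04 to 1.53. The other striated-muscle markers stood on that array at 0.56 (miR-206), −0.045 (miR-133a) and 0.0043 (miR-133a*), and the liver marker miR-122 at 0.37. Over the 5 arrays, miR-451 of red blood cells had a mean of 0.42 ± 0.65 and miR-133b, another muscle miRNA, −0.13 ± 0.13. Whether other cells in the dissection take part in the ratio of miR-669c was not tested.

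MiR-669a had ratios of −0.070, 0.066, 0.28, 0.069 and 0.045, with a mean of 0.078 ± 0.127 (n = 5, limma adjusted p = 0.425). Replicate 1 was negative and replicate 3 the highest, and without replicate 3 the mean was 0.028. MiR-669b, with 2 changed bases (G5U and U17G), had a mean of −0.055 ± 0.082 (n = 5, limma adjusted p = 0.440) and was positive on replicate 1 alone. Its mean was −0.086 without that array and −0.029 without replicate 5.

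**Figure D2:**
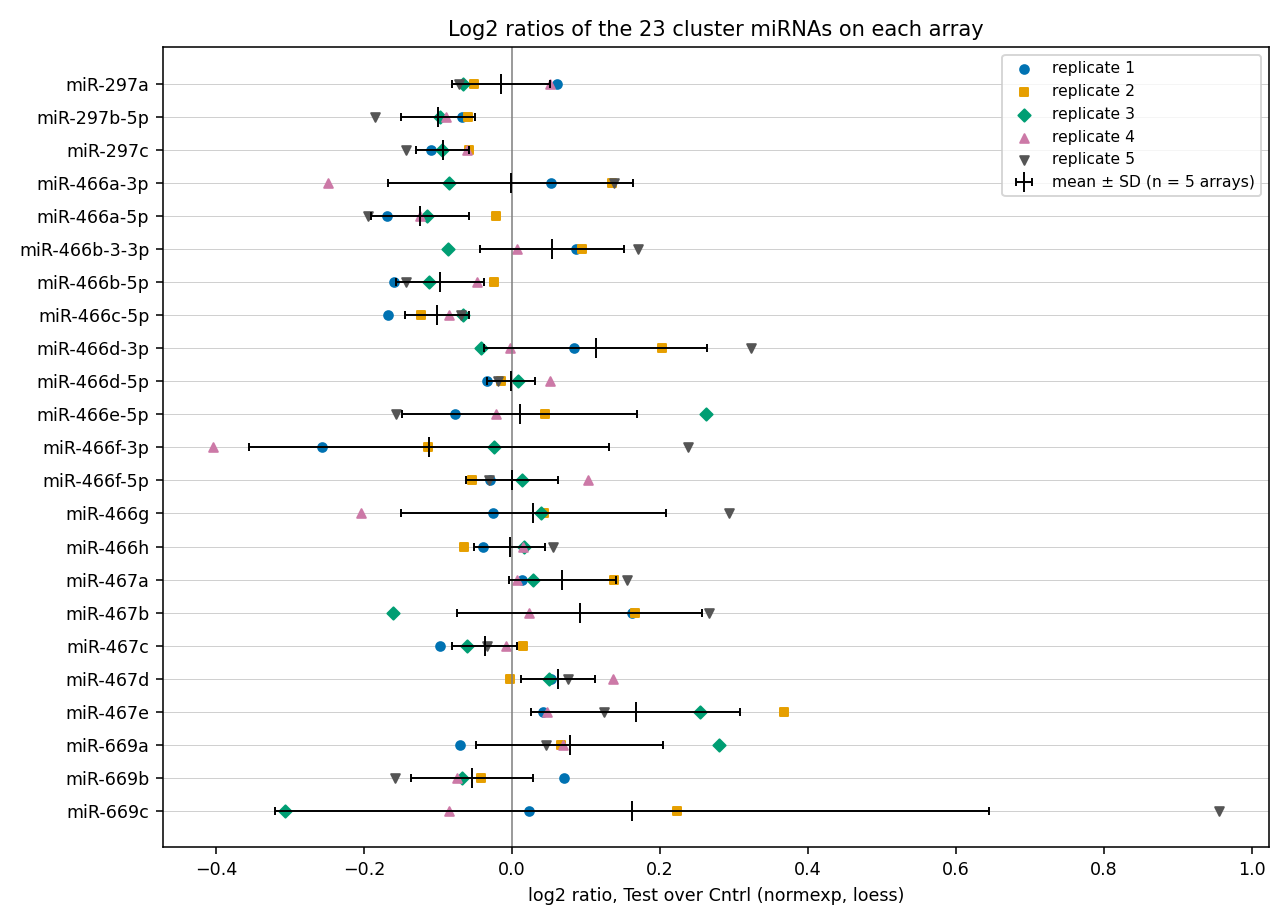
Log2 ratio of Test over Cntrl for the 23 members on each array after normexp background correction and loess. Symbols are the 5 replicates, and the bar gives the mean ± SD (n = 5 arrays). The values of miR-669c spread from −0.31 to 0.96, while miR-297b-5p, miR-297c, miR-466a-5p, miR-466b-5p and miR-466c-5p lie left of 0 on all arrays.

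Read by seed, the medians of the 4 shared groups were −0.10 for AUGUGUG (4 members), −0.094 for UGUAUGU (3 members of miR-297), 0.054 for AUACAUA (miR-466a-3p, miR-466b-3-3p and miR-466d-3p) and 0.013 for AAGUGCG (miR-467c and miR-467d). The groups AUGUGUG and UGUAUGU had negative medians on each of the 5 arrays. With median centring they stood at −0.24 and −0.22, where the median of all tested miRNAs was −0.040, and with loess on the probes above the mismatch limit at −0.11 and −0.087. The members of both groups were dim, with mean Test intensities of 45.4 to 63.5. In the miR-290 to miR-295 and miR-302 groups, all probes in that range of intensity had negative mean ratios as well, from −0.12 (miR-302b*) to −0.013 (miR-293*). Whether low intensity plays a part in the sign was not tested. The AUACAUA group turned to −0.098 with median centring, and its array medians were negative on replicates 3 and 4. The members of a group are near copies of one another, so their shared sign is no independent repeat.

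**Figure D3:**
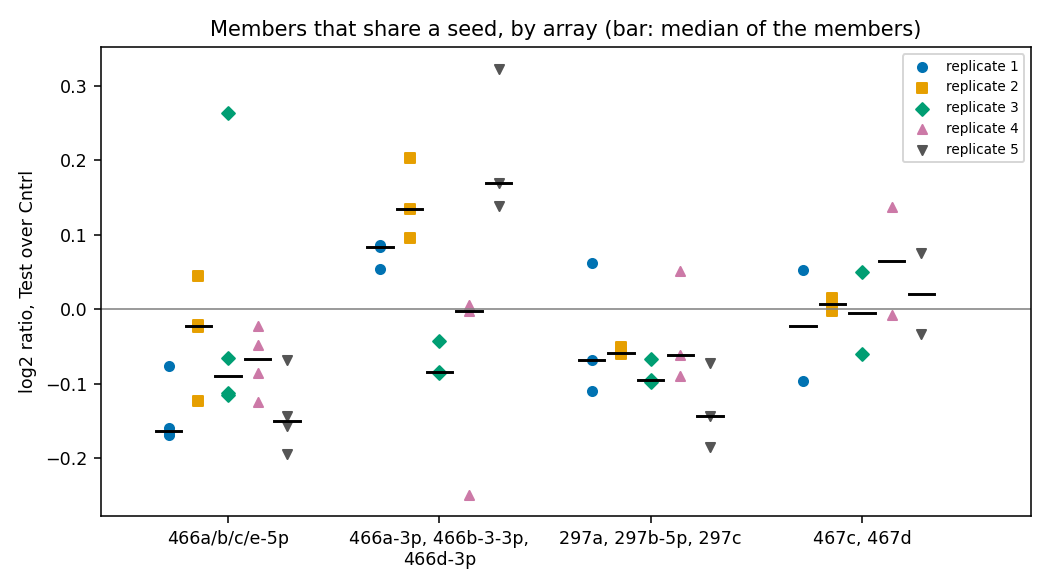
Log2 ratios on each array for the 4 seed groups with more than 1 member, with Test over Cntrl on the vertical axis. Points are single members on 1 array and horizontal bars their median. The bars of miR-466a/b/c/e-5p and of miR-297 lie below 0 on all 5 arrays, and those of the other groups on both sides.

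By the arm in the name, the 7 members named 5p had a median of −0.098. An unadjusted limma p under 0.05 was found for 4 of them, all 4 lower in Test, against 10.7% of all tested miRNAs in that direction. Of these 4, 3 are near copies with the seed AUGUGUG. The 4 members named 3p had a median of 0.026 and the 12 without an arm in their name 0.046, with 0 and 2 at that p in either direction (19.4% of all tested). These names do not settle the arm of the 12. Among them, miR-297a and miR-297c are near copies of miR-297b-5p, and miR-466g is rich in A and C. Split by composition, the 18 members rich in U and G had a median of −0.0025, with 8 positive and 10 negative means. The 5 rich in A and C had a median of 0.029, with 3 positive and 2 negative. Where both arms of a hairpin were measured, the 5p and 3p means were −0.13 and −0.0017 for miR-466a, −0.0017 and 0.11 for miR-466d, and 0.00023 and −0.11 for miR-466f. For miR-466b the 5p probe stood at −0.098 and the 3p probe of the third copy at 0.054. The main arm and the asterisked arm stood at 0.068 and 0.075 for miR-467a, at 0.092 and −0.087 for miR-467b, and at 0.17 and 0.0027 for miR-467e. No difference between arms was tested. MiR-467a* was above the mismatch limit on 5 arrays in Test and 4 in Cntrl, where miR-467a was above it on 0 and 2.

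Repeated spots give the error between spots within an array only, since they share the same labelled RNA. The median SD over the 6 spots of a member within an array was 0.14 on the log2 scale, which gives an expected SD of 0.056 for the mean of 6 spots (median over the members). The SD between arrays exceeded this expected value for 19 of the 23 members, and exceeded even the SD of single spots for 5. Arrays differ in mice, labelling and hybridization alike, so this excess cannot be assigned to the mice. Spots in the upper and lower part of the array, 3 of each for a miRNA, gave a mean ratio of the same sign for 18 of 23 members. For miR-466a-5p these means were −0.12 and −0.13, and for miR-467e 0.14 and 0.19.

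Replicate 3 ran against replicates 1 and 5. Over the 568 miRNAs its ratios correlated at r = −0.56 with those of replicate 5 and at r = −0.30 with those of replicate 1. Over the 23 members these values were −0.31 and −0.067. Across all miRNAs replicate 3 had positive r with replicate 2 (0.25) and replicate 4 (0.17). The pairs of arrays without replicate 3 had r between 0.18 (replicates 2 and 5) and 0.63. The labels give all 5 arrays the same dyes, so a reversed direction on replicate 3 is not settled. With its sign turned, 2 members (miR-466b-3-3p and miR-467b, both higher in Test) had an unadjusted p under 0.05 in place of 6, while the count over all tested miRNAs was 109 in place of 110. The median over the members was then −0.0054.

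The within-array normalization changed the calls. With each array centred on its median in place of loess, 8 members passed an adjusted p of 0.05 in limma, all lower in Test (miR-297b-5p, miR-297c, miR-466a-5p, miR-466b-5p, miR-466c-5p, miR-466f-5p, miR-467c and miR-669b), as did 248 of the 568 miRNAs. At an unadjusted p under 0.05 the split was then 0 higher and 11 lower, against 1 and 5 with loess. The median over the members was −0.12 in that setting, where the median over all tested miRNAs was −0.040. With no normalization the median of all tested miRNAs moved to −0.77, and all 23 members passed with a median of −0.85, as did 442 of the 568 miRNAs. Across the 23 members with loess, mean ratio and log2 mean Test intensity correlated at r = 0.51, a description over miRNAs that share the arrays. With loess fitted to the probes above the mismatch limit, 0 members had an unadjusted p under 0.05, against 11.4% of all tested.

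The authors' deposited value table holds 1 log2 value per miRNA and array. Over 138 bright miRNAs (mean Test intensity above 1000) it followed log2 of Test over Cntrl, here after blank subtraction and loess. There r was 0.987 to 0.999 with slopes of 0.97 to 0.99, so these miRNAs share scale and direction. No member was that bright, the highest mean in Test being 475. Over all miRNAs r was 0.73 to 0.95, and 0.77 to 0.93 against the normexp and loess ratios reported here. The medians of its 5 columns lay between −0.048 and −0.019. In the authors' deposited table the members spread wider, with means from −1.06 (miR-466a-5p) to 0.47 (miR-467e) and a median SD of 0.45. Replicate 5 held the most extreme value for 17 of the 23. Fitted in limma, the values of the authors' deposited table gave an unadjusted p under 0.05 for miR-466a-5p, miR-466b-5p, miR-466c-5p and miR-467e, at adjusted p values of 0.292 to 0.310.

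**Figure D4:**
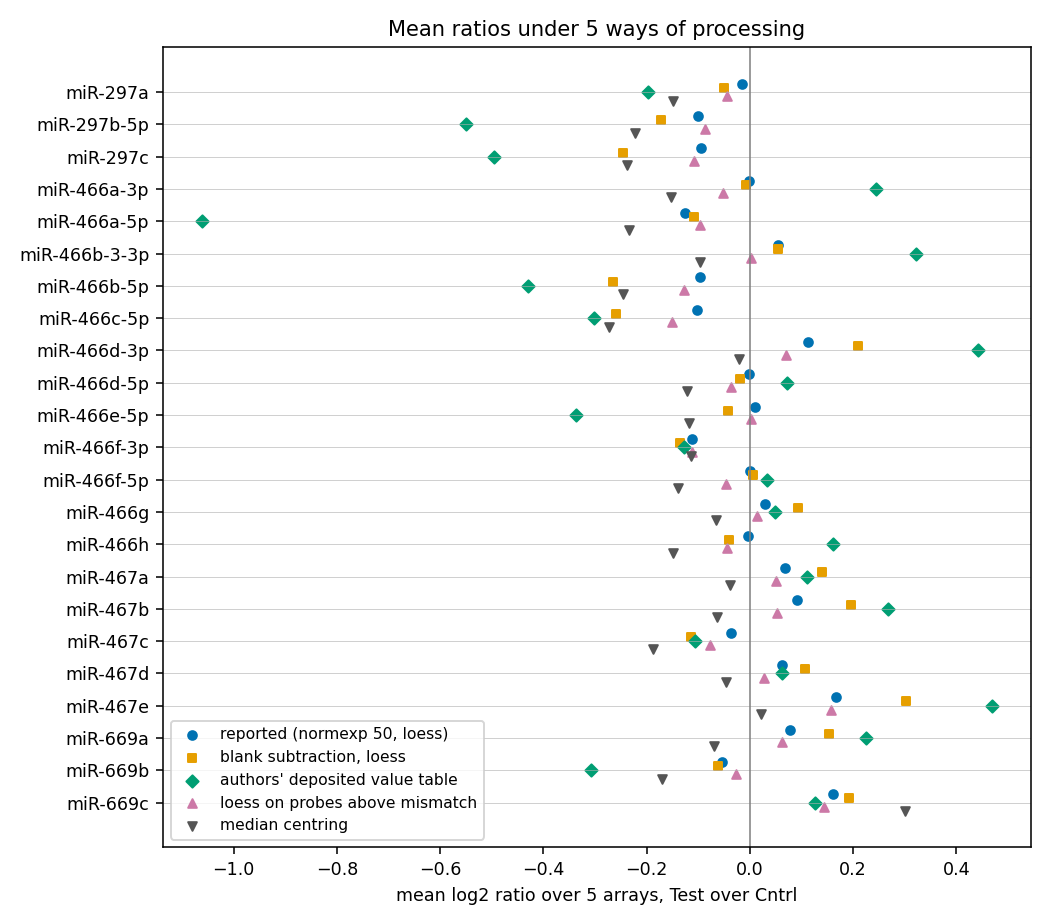
Mean log2 ratio of each member over the 5 arrays under 5 ways of processing. Points right of 0 are higher in Test. Median centring lies left of loess for most members, and the authors' deposited values reach from −1.06 for miR-466a-5p to 0.47 for miR-467e.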

How the data were processed

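The spot tables of the 5 arrays hold linear intensity as deposited, not normalized, with 3968 spots each and background columns at 0 per the file headers. The authors also deposited a value table of log2 values, with steps not given in the sources used here. Digit separators in the intensities were removed. Correction was by normexp (offset 50, all spots) and loess within arrays, with control spots at weight 0, followed by the mean of the 6 log2 values of each miRNA. An intercept was fitted with eBayes in limma 3.58.1 (R 4.3.3), two-sided, with Benjamini-Hochberg adjustment over the 568 of 569 miRNAs that passed the 95th percentile of 266 empty spots (either column, 3 arrays or more). The fit was tested on simulated data.

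The members, gene lists and tests were chosen with earlier results of these data known. Members given with values are the first of each family, the 4 brightest, the 4 highest and 4 lowest, those at an unadjusted p under 0.05, and those with both arms measured; single spots, and the remaining members of a described group, were picked after their values were seen. The labels call the arrays biological replicates, and a ratio carries its pair of mice. Signal over background and the number of arrays limit the precision. Alternatives covered background, normalization, filter, spot summary, variance model, array weights, pairing, value table and each array left out. Chosen after seeing the data were replicate 3 with its sign turned and the spots of either part of the array. Hairpins were matched to RefSeq by symbol, and sequences are those of the deposited tables. Coordinates are left out because the tables name no build. Figures were drawn with matplotlib 3.10.9.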

Additional observations from a re-analysis of the deposited data

How the results depend on the processing

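The count of 0 members past an adjusted p of 0.05 in limma held under every alternative run except median centring (8, with 248 of 568 miRNAs) and no normalization (23, with 442). The count of 6 at an unadjusted p under 0.05 (19.4% of all tested) became 11 and 23 in those settings (51.9% and 78.5% of all tested), 0 with loess on probes above the mismatch limit (11.4%), 1 of 8 tested when both columns had to pass the empty spots on all 5 arrays (17.5%), and 0 of the 3 tested above the mismatch limit (17.3%). Without the replicate block, with the columns as separate samples, it was 3 (10.2%). It was 2 with replicate 3 turned (19.2%) and 3 with the lower spots (13.2%). It was 5 to 6 when 1 array was left out, over 10.2% to 24.6% of all tested, with 0 members past the adjusted p each time. The median over the members, −0.0017, was −0.12 with median centring, −0.85 with no normalization, 0.048 under the filter on both columns, 0.050 in the authors' deposited value table, and −0.018 to 0.0062 with 1 array left out. All 23 members, rather than 3, were above the limit when it was set by the empty spots.

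Direction was followed for 17 members, and 20 values turned sign, 9 of them with no normalization, where all miRNAs shift together (median −0.77) and small positive means must turn. With median centring these were miR-466b-3-3p (−0.098), miR-466d-3p (−0.021), miR-466g (−0.066), miR-467a (−0.039), miR-467b (−0.064), miR-467d (−0.045) and miR-669a (−0.069). With no normalization they were miR-466b-3-3p (−0.82), miR-466d-3p (−0.75), miR-466g (−0.79), miR-467a (−0.76), miR-467b (−0.79), miR-467d (−0.77), miR-467e (−0.70), miR-669a (−0.79) and miR-669c (−0.42). MiR-466g turned with array weights (−0.048). With 1 array left out it ran from −0.037 to 0.087 and miR-669c from −0.036 to 0.28, both lowest without replicate 5, and miR-669a with replicate 3 turned (−0.034). For the other turns the cause was not tested. Of the 23 members, 20 were not above the mismatch limit.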

Other observations

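No member's 5 ratios held a value far enough from the others to be set aside by Dixon's criterion (0 of 23 members, where chance gives about 1 in 20). MiR-467a*, an arm outside the naming rule, had Test intensities of 173, 240, 107, 99.4 and 78.0, each above the mismatch limit of its array. Its log2 ratios were 0.057, 0.20, −0.072, −0.081 and 0.26, with a mean of 0.075 ± 0.157 (n = 5) and an adjusted p of 0.503 in limma. None of the 4 asterisked arms had an unadjusted p under 0.05. MiR-467e* shared with miR-467e and miR-669a its lowest Cntrl signal on replicate 3, at 255, where the empty spots had a 95th percentile of 248.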
